A study of Homo sapiens with 12 samples.

Results

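The interleukin-1 (IL-1) family was followed at the RNA level through 10 genes: the ligands IL1A, IL1B, IL18, IL33 and IL36G, the antagonists IL1RN and IL36RN, the receptors IL1R1 and IL1R2, and the accessory chain IL1RAP. They were taken by symbol from the rows of the table that lie on assembled chromosomes, and all 10 were found among its 46931 genes. The cells were MCF10A, an immortalised line of human mammary epithelial cells labelled as wild type and grown with horse serum, insulin, hydrocortisone and epidermal growth factor. Hydrocortisone, a glucocorticoid, was therefore present in every group. The cells received control siRNA at 22 nM, or siRNA sets against both YAP and TAZ (the product of WWTR1) at 11 nM. At 48 h after transfection the medium was changed to one with DMSO, the solvent, or with XMU-MP1 at 5 µM, which inhibits the kinases MST1 and MST2, and RNA was taken 6 h later. With 3 libraries each, the groups are siC_DMSO (control siRNA, DMSO), siC_XMU (control siRNA, XMU-MP1), siYT_DMSO (siRNA against YAP and TAZ, DMSO) and siYT_XMU (siRNA against YAP and TAZ, XMU-MP1). The libraries of a group carry the letters a, b and c, which the labels do not tie to separate cultures, so a p-value here weighs a difference against the spread of these libraries, which may be technical.

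YAP and TAZ are transcriptional coactivators that bind TEAD factors, and the Hippo kinases MST1 and MST2 act upstream of the kinases that hold YAP and TAZ out of the nucleus. IL-1α (IL1A) is active as a precursor and is released from damaged epithelial cells, whereas IL-1β (IL1B) and IL-18 (IL18) are made as precursors that caspase-1 cuts. Both IL-1 ligands bind IL1R1, which signals only together with IL1RAP. The receptor antagonist IL1RN occupies IL1R1 without recruiting IL1RAP, and IL1R2 is a decoy that binds ligand and lacks a signalling domain. IL-36γ (IL36G), an epithelial cytokine of barrier tissues, uses the receptor IL1RL2 with IL1RAP and is blocked by IL36RN. IL-33 (IL33) is a nuclear alarmin that acts through IL1RL1.

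Of the 10 genes 5 share a cluster on chromosome 2 (build GRCh38.p13, coordinates as deposited). IL1A (gene ID 3552) lies at chr2:112773925-112784493 on the minus strand and IL1B (3553) at chr2:112829751-112836843 on the minus strand. IL36G (56300) at chr2:112978006-112985658, IL36RN (26525) at chr2:113058638-113064744 and IL1RN (3557) at chr2:113099365-113134016 lie on the plus strand. The receptors IL1R2 (7850) at chr2:101991805-102028544 and IL1R1 (3554) at chr2:102069638-102179874, both plus, are neighbours elsewhere on chromosome 2. IL1RAP (3556) lies at chr3:190514085-190659750 on the plus strand, IL18 (3606) at chr11:112143251-112164104 on the minus strand and IL33 (90865) at chr9:6214591-6257983 on the plus strand.

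Upstream sequences of 4 of the 5 cluster genes are shown, chosen with the results known and not by a fixed rule. Each is the 250 bases before the most upstream of the transcript starts that the RefSeq table gives for the gene (build GRCh38.p14), 5′ to 3′ on the gene's strand, with matches to the motif TGANTCA (AP-1) or GGAATG (TEAD), searched on both strands, in capitals. The IL1RN window lies inside the deposited span of that gene, whose start at 113099365 had no window. On the plus strand a TEAD match on the opposite strand reads CATTCC.
IL1A, chr2:112784494-112784743, minus strand: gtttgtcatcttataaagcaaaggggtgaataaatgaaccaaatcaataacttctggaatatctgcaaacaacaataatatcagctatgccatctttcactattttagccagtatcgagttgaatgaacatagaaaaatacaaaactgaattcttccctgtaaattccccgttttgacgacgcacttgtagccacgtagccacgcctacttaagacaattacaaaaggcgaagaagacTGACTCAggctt
IL1RN, chr2:113117721-113117970, plus strand: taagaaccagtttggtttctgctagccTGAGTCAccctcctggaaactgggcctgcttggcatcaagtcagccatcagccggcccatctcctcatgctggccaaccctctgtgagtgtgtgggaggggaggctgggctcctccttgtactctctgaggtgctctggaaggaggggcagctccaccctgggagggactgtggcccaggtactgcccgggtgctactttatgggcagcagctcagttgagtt
IL36G, chr2:112977756-112978005, plus strand: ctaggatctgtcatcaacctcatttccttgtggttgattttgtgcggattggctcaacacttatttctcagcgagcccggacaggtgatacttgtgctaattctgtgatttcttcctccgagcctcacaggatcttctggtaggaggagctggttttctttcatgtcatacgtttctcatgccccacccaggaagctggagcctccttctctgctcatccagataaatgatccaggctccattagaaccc
IL36RN, chr2:113058388-113058637, plus strand: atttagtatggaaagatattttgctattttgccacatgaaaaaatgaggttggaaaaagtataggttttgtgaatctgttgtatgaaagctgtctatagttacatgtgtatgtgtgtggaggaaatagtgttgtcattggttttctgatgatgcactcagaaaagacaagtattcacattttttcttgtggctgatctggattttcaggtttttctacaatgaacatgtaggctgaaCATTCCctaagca
The IL1A window printed held an AP-1 match at base -12, counted back from the transcript start, and the IL1RN window one at -223. The IL36RN window printed held a TEAD match at -13, and the IL36G window, its only one, held none of the motifs searched. IL1RN had 3 windows and IL36RN 2, and those not printed held no match. The window of IL1B, the cluster gene not printed, held none of the motifs searched. The other IL1A window, which overlaps the one printed, held 2 AP-1 matches, at -105 and -55, and the one at -105 is the same site as that printed. RefSeq gave 18 such windows for 9 of the genes (IL18 had none), some of them overlapping. AP-1 matched 3 of these 18 windows against 6.57% of 35114 windows of all genes, and TEAD matched 2 of 18 against 11.9%. Of the 3 windows with AP-1, 2 are the IL1A windows that share a site. The kappaB motif, the NF-kappaB site by name, matched 1 of 18 windows (in IL1R2) against 9.96%. A match describes letters only and no binding was measured.

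Depth ranged from 25246464 to 67953633 counts in 11 libraries and was 8243351 in siYT_XMU c, which also stood apart with 35.0% of its counts in ribosomal RNA genes (1.02 to 8.35% in the others) and with 15135 genes detected (17950 to 20704 in the others). Where a library has no count, 3 counts remain possible, equal to 0.0382 to 0.621 CPM by library, a floor that covers counting error only. Levels of one gene across groups are given in CPM, library-scaled counts after TMM scaling. In edgeR's quasi-likelihood test YAP1 fell by 4.39 and WWTR1 fell by 2.96 on the log2 scale with the siRNAs in DMSO (adjusted p = 8.41e-07 and 0.000511). These falls were 20.9-fold and 7.8-fold, against 25.9-fold and 43.0-fold in XMU-MP1 (adjusted p = 9.29e-07 and 2.31e-05). After the knockdown both were lower with XMU-MP1 than with DMSO (-0.904 and -1.625, adjusted p = 0.022 and 0.0463, edgeR). With control siRNA neither passed (adjusted p = 0.106 and 0.278, edgeR). Residual YAP1 and WWTR1 RNA thus differed between siYT_DMSO and siYT_XMU, and its part in the results was not tested. All 7 mammary epithelial markers (keratins KRT5, KRT14, KRT17 and KRT18, with CDH1, EPCAM and ITGA6) were counted in all 12 libraries. Of the leukocyte markers AIF1 was at 0 everywhere, TYROBP and CD3E had counts in 1 library each and PTPRC, the pan-leukocyte marker, in 3 (4 counts in siYT_DMSO b, 28 in siYT_XMU b and 27 in siYT_XMU c). CD14 and CSF1R had counts in all 12 libraries and ITGAM in 11. The fibroblast marker COL1A2 had 4 counts in siC_XMU b, 147 in siYT_XMU b, 161 in siYT_XMU c and none elsewhere, and the endothelial marker PECAM1 had counts in all 12 libraries.

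In the control cells (siC_DMSO) the family was dominated by 3 ligands. On the deposited FPKM scale, which is per transcript length and allows genes to be compared, IL18 stood at 101 ± 22.3 (SD, n = 3), IL1A at 57.4 ± 14.3 and IL1B at 17.6 ± 4.13. The receptor chains and the antagonist lay far lower, with IL1RAP at 3.24 ± 0.128, IL1R1 at 1.30 ± 0.528 and IL1RN at 1.05 ± 0.673 FPKM. IL1R1 and IL1RN did not differ beyond their spread. IL36RN was at 0.261 ± 0.187 FPKM and IL1R2 at 0.0921 ± 0.0635, levels that overlapped within their SDs. IL36G had 5 counts in library c and none in a and b, and IL33 had none.

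The order of the levels changed in each other group. In siYT_DMSO IL1A (77.5 ± 31.7 FPKM), IL18 (53.9 ± 19.8), IL1RN (52.9 ± 21.0) and IL1B (45.1 ± 33.1) formed a top group whose spreads overlapped. IL36G followed at 9.73 ± 6.59 and IL1R1 at 6.14 ± 1.95 FPKM, also overlapping, and then IL36RN (1.89 ± 1.05) and IL1RAP (1.58 ± 0.365). In siC_XMU IL18 led at 75.9 ± 8.88 FPKM, ahead of IL1A at 6.41 ± 1.34, IL1RAP at 3.64 ± 0.601 and IL1B at 1.85 ± 0.270. In siYT_XMU IL18 (44.0 ± 27.1 FPKM) and IL1RN (30.1 ± 5.79) overlapped, followed by IL1B (11.8 ± 3.99), IL36G (3.63 ± 1.43) and IL1A (2.27 ± 1.63), the last pair within their spread. IL1RAP, IL36RN and IL1R1 were then at 1.38 ± 0.565, 0.861 ± 0.135 and 0.850 ± 0.365 FPKM, and IL1R2 and IL33 lay under 0.1 FPKM in that group.

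**Figure D1:**
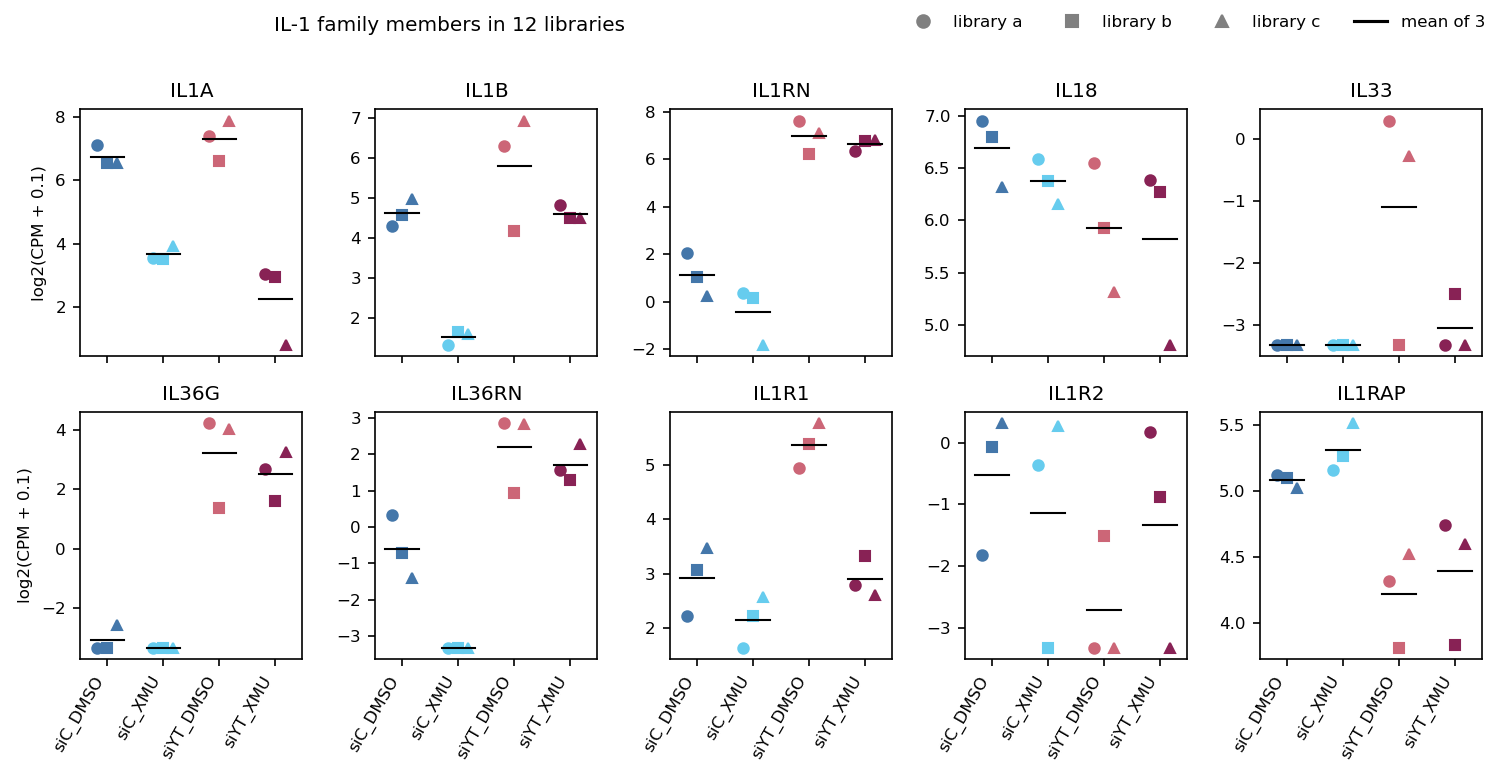
Level of each of the 10 genes in the 12 libraries, as log2(CPM + 0.1) on the vertical axis, by group, with symbols for the library letters and a line at the mean of 3. IL1RN, IL36G and IL36RN lie higher in all siYT libraries than in all siC libraries, and IL1A lies lower in all XMU libraries than in all DMSO libraries.

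Depletion of YAP and TAZ was first compared in DMSO, siYT_DMSO against siC_DMSO, which asks how these coactivators bear on the family without the inhibitor. The antagonists IL1RN and IL36RN, the ligands IL1B and IL36G and the receptor IL1R1 rose, and the accessory chain IL1RAP fell. Of the 10 genes 9 passed the low-count filter, and 5 of these 9 rose and 1 fell at an adjusted p under 0.05 (edgeR, Benjamini-Hochberg over 18143 genes), where 16.1% of all genes tested rose and 16% fell. IL36G, 1 of the 5, passed the filter only through the knockdown libraries, so the count of 5 follows in part from that filter. The members were also chosen with earlier results of these data known. The median log2 change of all genes tested was 0.02. In bulk RNA, fewer cells of a kind and less RNA per cell cannot be told apart.

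Markers of cell types moved in the same comparison. Of the 7 epithelial markers KRT17 (3.04) and CDH1 (1.65) rose and KRT5 (-1.59), KRT18 (-1.88) and EPCAM (-1.15) fell on the log2 scale. Of 3 leukocyte markers tested CSF1R rose (2.46, adjusted p = 0.008, edgeR), and the summed leukocyte level was 38.9 to 57.2 CPM in siC_DMSO and 33.6 to 57.7 CPM in siYT_DMSO. Of 4 fibroblast markers tested PDGFRA rose, from 3 counts in the control group to 1.21, 1.31 and 8.25 CPM, and the summed fibroblast level was 11.1 to 23.9 CPM in siC_DMSO against 24.1 to 70.1 CPM in siYT_DMSO. PDGFRA passed the low-count filter through the siYT libraries, so its call follows in part from that filter. None of 3 endothelial markers passed, with sums of 1.91 to 3.82 and 0.917 to 2.10 CPM. The part of these shifts in the results was not tested.

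IL1RN had the smallest adjusted p of these changes. Its level was 3.99, 1.98 and 1.09 CPM in siC_DMSO a, b and c, and 198.5, 74.1 and 138.9 CPM in siYT_DMSO a, b and c. Every library after the knockdown lay above every control library, with library b the lowest of the knockdown group. The log2 change was 5.87 (SE 0.68), a 58.3-fold rise (adjusted p = 5.86e-05, edgeR). Without siC_DMSO a, the control library with the highest level, it was 6.48 with an adjusted p of 0.00018. The share of ribosomal RNA counts was 1.86 to 8.35% in siYT_DMSO and 1.05 to 2.15% in siC_DMSO, and its part in the result was not tested.

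The IL-36 pair rose with it. IL36G, at 0, 0 and 0.0689 CPM in the controls, was at 18.6, 2.51 and 16.1 CPM in siYT_DMSO a, b and c. Its counts were thus nearly confined to the knockdown libraries, and it passed the low-count filter through them. The fitted log2 change of 8.92 (SE 1.29, adjusted p = 0.00053) rests on 5 control counts and on edgeR's prior count, and it was 12.26 without siC_DMSO c, the library that held them. IL36RN, its antagonist, was at 1.15, 0.510 and 0.275 CPM in the controls and at 7.13, 1.82 and 7.09 CPM after the knockdown. No library of one group overlapped the other, and the change was 3.05 (SE 0.73), or 8.28-fold (adjusted p = 0.00944). Without siC_DMSO a it was 3.75 (adjusted p = 0.0103).

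IL1B differed in how its libraries behaved. Its level was 19.7, 23.7 and 31.4 CPM in siC_DMSO, against 79.0, 17.9 and 123.2 CPM in siYT_DMSO a, b and c. Libraries a and c of the knockdown lay above the controls, whereas library b lay below all 3 of them. The log2 change of 1.56 (SE 0.49) had an adjusted p of 0.0295 and was the least stable of the rises. The call was lost without siYT_DMSO a (1.5, adjusted p = 0.071), without siYT_DMSO c (0.95, 0.164) and without siC_DMSO a, b or c (1.41, 1.52 and 1.75, with adjusted p = 0.106, 0.0891 and 0.0505). It was also lost with voom quality weights (adjusted p = 0.0843), with only the compared groups in the fit (0.0768) and on log2(FPKM + 1) and log2(FPKM + 0.1) (0.194 and 0.207). IL1A, its close relative, was at 138.8, 93.0 and 93.5 CPM in the controls and at 170.0, 98.4 and 235.4 CPM after the knockdown. The groups overlapped and the change of 0.63 (SE 0.41) did not pass (adjusted p = 0.274). Library b was the lowest of siYT_DMSO for all 5 cluster genes.

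The receptor IL1R1 was at 4.55, 8.26 and 11.0 CPM in siC_DMSO, against 30.6, 41.9 and 54.5 CPM in siYT_DMSO. All knockdown libraries lay above all controls, a change of 2.41 (SE 0.38) or 5.33-fold (adjusted p = 0.000492, edgeR). The shared accessory chain IL1RAP moved the other way, from 34.8, 34.2 and 32.4 CPM to 19.8, 14.0 and 23.0 CPM, again with no overlap. Its change of -0.84 (SE 0.25) passed at an adjusted p of 0.0246. It no longer passed without siC_DMSO a, b or c (-0.82, -0.83 and -0.87, with adjusted p = 0.0678, 0.0665 and 0.0541) or without siYT_DMSO a (-0.88, 0.053) or b (-0.66, 0.101).

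The decoy IL1R2 was close to the floor. Its counts were 12, 67 and 83 in siC_DMSO and 0, 13 and 0 in siYT_DMSO, and its change of -3.0 (SE 1.75) did not pass (adjusted p = 0.221). IL18 stood at 123.9, 111.3 and 79.6 CPM in the controls and at 93.8, 60.7 and 39.7 CPM after the knockdown. These ranges overlapped, although the knockdown library was the lower for each letter, and the change of -0.70 (SE 0.38) had an adjusted p of 0.192. It passed with the letters as a replicate block (-0.76, adjusted p = 0.0308) and with voom quality weights (-0.85, adjusted p = 0.0212). IL33 failed the low-count filter with 75 counts over all libraries. Of these, 27 fell in siYT_DMSO a, 44 in siYT_DMSO c and 4 in siYT_XMU b, so that its mean level in siYT_DMSO was at least 14.8-fold higher than the floor of 3 counts per library allows in siC_DMSO. That difference has no test.

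**Figure D2:**
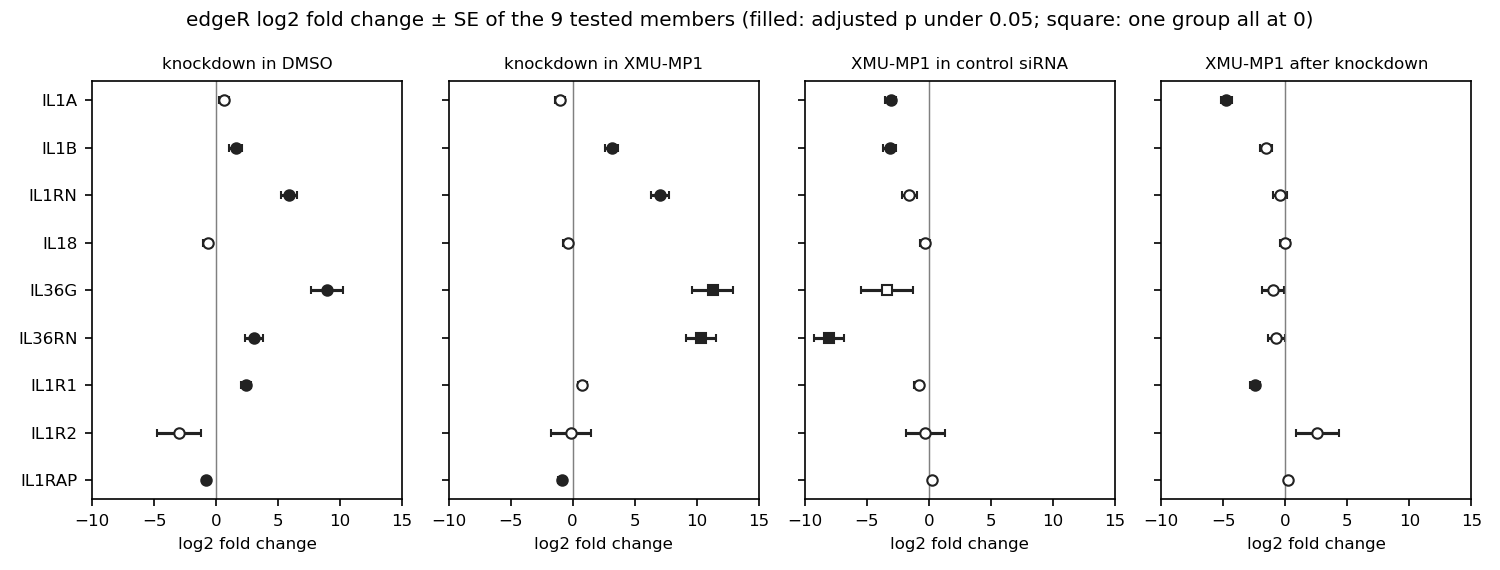
Log2 fold change with its standard error for the 9 tested genes (rows) in the 4 group comparisons (panels), filled where the edgeR adjusted p is under 0.05 and square where a group had no counts. IL1RN, IL36G and IL36RN lie to the right in both knockdown panels, and IL1A lies to the left in both XMU-MP1 panels.

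In the presence of XMU-MP1, the knockdown comparison (siYT_XMU against siC_XMU) again gave higher IL1RN, IL36G, IL36RN and IL1B and lower IL1RAP. Of the 9 genes tested, 4 rose and 1 fell, where 17.7% of all genes rose and 18.6% fell, with a median of 0.04. IL1RN was at 1.18, 1.03 and 0.182 CPM in siC_XMU, against 81.4, 110.4 and 113.8 CPM in siYT_XMU, a log2 change of 7.01 (SE 0.73), or 129-fold (adjusted p = 3.07e-05). IL36G had no counts in siC_XMU and stood at 6.39, 2.96 and 9.52 CPM in siYT_XMU, at least 120-fold higher than the floor of 3 counts per library (adjusted p = 0.000538). IL36RN had none in siC_XMU either and stood at 2.84, 2.36 and 4.76 CPM in siYT_XMU, at least 63.1-fold higher (adjusted p = 0.000146). For each of these genes all siYT_XMU libraries exceeded all siC_XMU libraries. IL36G and IL36RN passed the low-count filter without any count in siC_XMU. IL36G passed it only through the knockdown libraries, so the count of 4 follows in part from that filter.

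Some markers of other cell types rose here as well. All 3 leukocyte markers tested rose, CD14 by 1.74, ITGAM by 5.36 and CSF1R by 2.41 on the log2 scale (adjusted p = 0.0037, 0.00454 and 0.00867, edgeR), with a summed level of 8.05 to 17.3 CPM in siC_XMU against 27.2 to 82.9 CPM in siYT_XMU. Of 3 endothelial markers PECAM1 (4.31) and VWF (7.70, a fit against no count in siC_XMU) rose, and the sum of the 3 was 0.854 to 1.09 CPM against 1.26 to 8.49 CPM. VWF had counts in 5 libraries, at most 0.947 CPM. It passed the low-count filter largely through the siYT libraries, so its call follows in part from that filter. PDGFRA (4.20) rose as 1 of 4 fibroblast markers tested, with a sum of 15.9 to 25.8 CPM against 23.5 to 132.3 CPM. PDGFRA itself was at 0.0999 CPM in siC_XMU and passed the filter through the siYT libraries, with the same limit. PTPRC had counts in libraries b and c of siYT_XMU and none in siYT_XMU a, whose summed leukocyte level was 27.2 CPM. Of the epithelial markers KRT17 (3.59) and CDH1 (1.99) rose, and KRT5 (-0.84), KRT18 (-1.88) and EPCAM (-0.76) fell. The part of these shifts in the results was not tested.

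IL1B was at 2.38, 3.01 and 2.93 CPM in siC_XMU, against 28.1, 22.7 and 22.6 CPM in siYT_XMU. Here the libraries of each group lay close together and apart from the other group, and the change was 3.14 (SE 0.53, adjusted p = 0.000735). IL1RAP went from 35.8, 38.5 and 45.7 CPM to 26.7, 14.2 and 24.2 CPM, without overlap, a change of -0.89 (SE 0.26, adjusted p = 0.0177). It no longer passed without siC_XMU c (-0.79, adjusted p = 0.0688) or with only the compared groups in the fit (-0.86, adjusted p = 0.06). The ligand IL1A was at 11.7, 11.3 and 15.3 CPM in siC_XMU, against 8.21, 7.61 and 1.66 CPM in siYT_XMU. No siYT_XMU library reached a siC_XMU library, yet the change of -1.02 (SE 0.42) did not pass (adjusted p = 0.0782), and it was -0.70 without the shallow library siYT_XMU c. It passed with DESeq2 (-0.99, adjusted p = 0.0439) and on log2(FPKM + 1) and log2(FPKM + 0.1) (-1.33 and -1.87, adjusted p = 0.0276 and 0.0296). IL1R1 (0.78, SE 0.37, adjusted p = 0.122, and 0.0361 with a replicate block) and IL18 (-0.39, adjusted p = 0.45) did not pass. The decoy IL1R2 (-0.14, adjusted p = 0.959) had counts in 2 libraries of each of these groups. The knockdown comparisons in DMSO and in XMU-MP1 share no library. Without siYT_XMU c, 4 of the 9 genes again rose and 1 fell.

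XMU-MP1 was next compared with DMSO in cells with control siRNA (siC_XMU against siC_DMSO). The IL-1 ligands IL1A and IL1B and the antagonist IL36RN fell within these 6 h. Of the 9 genes tested none rose and 3 fell, where 4% of all genes tested rose and 5.26% fell, with a median of -0.02. IL1A dropped from 138.8, 93.0 and 93.5 CPM to 11.7, 11.3 and 15.3 CPM, with a wide gap between the groups. Its log2 change was -3.09 (SE 0.44, adjusted p = 0.00204, edgeR), or 8.49-fold lower. IL1B dropped from 19.7, 23.7 and 31.4 CPM to 2.38, 3.01 and 2.93 CPM, a change of -3.17 (SE 0.53, adjusted p = 0.00409), close in size to that of IL1A. IL36RN, with 75, 40 and 20 counts in siC_DMSO, had none in any siC_XMU library. It was at least 12.2-fold lower on the floor of 3 counts (adjusted p = 0.0038, and 0.0108 without siC_DMSO a), while on log2(FPKM + 1) in limma-trend the change was -0.32 (adjusted p = 0.514).

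IL1RN was lower by 1.57 on the log2 scale (SE 0.61) without passing (adjusted p = 0.137, and 0.0416 with DESeq2), and its groups overlapped, with 1.09 CPM in siC_DMSO c and 1.18 CPM in siC_XMU a. IL1R1 (-0.83, adjusted p = 0.198), IL18 (-0.33, 0.691), IL1R2 (-0.28, 0.966) and IL1RAP (0.24, 0.65) did not pass. IL36G had 5 counts in all over both groups. Of the leukocyte markers tested only CD14 passed, with a fall of 2.08 on the log2 scale (adjusted p = 0.0065, edgeR). ITGAM (-1.70, adjusted p = 0.374) and CSF1R (-0.82, 0.454) did not pass. The summed level of the leukocyte markers was 38.9 to 57.2 CPM in siC_DMSO and 8.05 to 17.3 CPM in siC_XMU, most of it from CD14. PTPRC, TYROBP, AIF1 and CD3E had no count in either group, and the part of such cells in the result was not tested.

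After the knockdown, XMU-MP1 (siYT_XMU against siYT_DMSO) was accompanied by lower IL1A and IL1R1. Of the 9 genes tested none rose and 2 fell, where 4.19% of all genes tested rose and 7.92% fell, with a median of 0.02. IL1A went from 170.0, 98.4 and 235.4 CPM to 8.21, 7.61 and 1.66 CPM, a log2 change of -4.74 (SE 0.48, adjusted p = 0.000182, edgeR). The groups were far apart, and the change was -4.41 without siYT_XMU c. IL1R1 went from 30.6, 41.9 and 54.5 CPM to 6.80, 9.95 and 6.00 CPM, within the range of siC_DMSO. Its change was -2.46 (SE 0.39), or 5.52-fold lower (adjusted p = 0.00212).

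The other genes did not pass in this comparison. IL1B was at 79.0, 17.9 and 123.2 CPM in siYT_DMSO and at 28.1, 22.7 and 22.6 CPM in siYT_XMU, so that library b of siYT_DMSO lay below the treated libraries. Its change of -1.58 (SE 0.49) had an adjusted p of 0.0593. It passed without siYT_DMSO b (-2.05, adjusted p = 0.00154), with DESeq2 (-1.52, 0.0133) and with no low-count filter (-1.59, 0.0371). IL1RN (-0.43, SE 0.55, adjusted p = 0.679), IL36G (-1.0, SE 0.88, 0.519) and IL36RN (-0.71, SE 0.68, 0.561) overlapped between the groups. IL18 (-0.02), IL1RAP (0.19) and IL1R2 (2.57) had adjusted p of 0.984, 0.688 and 0.379.

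Whether the XMU-MP1 effect differed between the siRNA arms was tested as an interaction, the effect after knockdown minus that with control siRNA. Of the 9 genes tested 1, IL36RN, passed with a positive interaction and none with a negative one. Of all genes tested 0.86% passed with a positive and 1.73% with a negative interaction, with a median of 0.07. IL36RN did not rise with XMU-MP1 in either arm, and its change after the knockdown was -0.71 (adjusted p = 0.561, edgeR). IL36RN lost all its counts with XMU-MP1 under control siRNA and stood at 2.36 to 4.76 CPM with it after the knockdown, and its interaction was 7.34 (SE 1.42, adjusted p = 0.0299). The size of this value depends on the prior count because siC_XMU was at 0. The call was lost without siC_DMSO a (6.59, adjusted p = 0.0671), b (7.41, 0.0688) or c (7.65, 0.0523). It was also lost without siC_XMU a (7.36, 0.0532), b (7.32, 0.0811) or c (7.30, 0.0836) and without siYT_DMSO b (6.92, 0.0649) or c (7.58, 0.0688). For IL1A the interaction was -1.65 (SE 0.59, adjusted p = 0.157), for IL1B 1.58 (SE 0.69, 0.248) and for IL1R1 -1.64 (0.115), none of which passed in edgeR. With DESeq2 the interaction passed for IL1A (-1.64, adjusted p = 0.0471) and IL1R1 (-1.56, 0.0340), and on log2(FPKM + 1) for IL1R1 (-1.51, 0.0437). IL1RN (1.15, adjusted p = 0.497), IL36G (2.39, 0.585), IL1R2 (2.86, 0.57), IL18 (0.30, 0.839) and IL1RAP (-0.05, 0.984) did not pass.

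The balance of agonist and antagonist transcripts was read as the ratio of FPKM within a library, as a description without a test. IL1A exceeded IL1RN by 41.3, 56.2 and 102.8 times in siC_DMSO a, b and c. In siYT_DMSO the ratios were 1.01, 1.57 and 2.00, so the 2 transcripts stood near parity. In siYT_XMU, where IL1A was low and IL1RN high, they were 0.119, 0.0813 and 0.0162, and the antagonist exceeded the agonist in every library. In siC_XMU they were 11.7, 13.2 and 105.8, with library c apart, where IL1RN was at 0.182 CPM. On the log2 scale the means were 5.95 ± 0.67, 4.67 ± 1.79, 0.56 ± 0.50 and -4.21 ± 1.53 (SD, n = 3) in siC_DMSO, siC_XMU, siYT_DMSO and siYT_XMU, and -3.34 in the last group without library c.

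The ratio of IL1B to IL1RN separated the siRNA arms in every library, at 4.25 ± 1.28 and 2.88 ± 1.64 on the log2 scale in siC_DMSO and siC_XMU, and at -0.52 ± 0.95 and -1.39 ± 0.45 in siYT_DMSO and siYT_XMU. The control groups overlapped each other, and so did the knockdown groups. IL36G exceeded IL36RN by 5.82, 3.11 and 5.09 times in siYT_DMSO and by 5.03, 2.82 and 4.48 times in siYT_XMU. That ratio was alike in both groups, with library b the lowest in each. IL1R1 exceeded its decoy IL1R2 by 34.3, 12.4 and 12.4 times in siC_DMSO, and in each other group at least 1 library had no IL1R2 count.

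**Figure D3:**
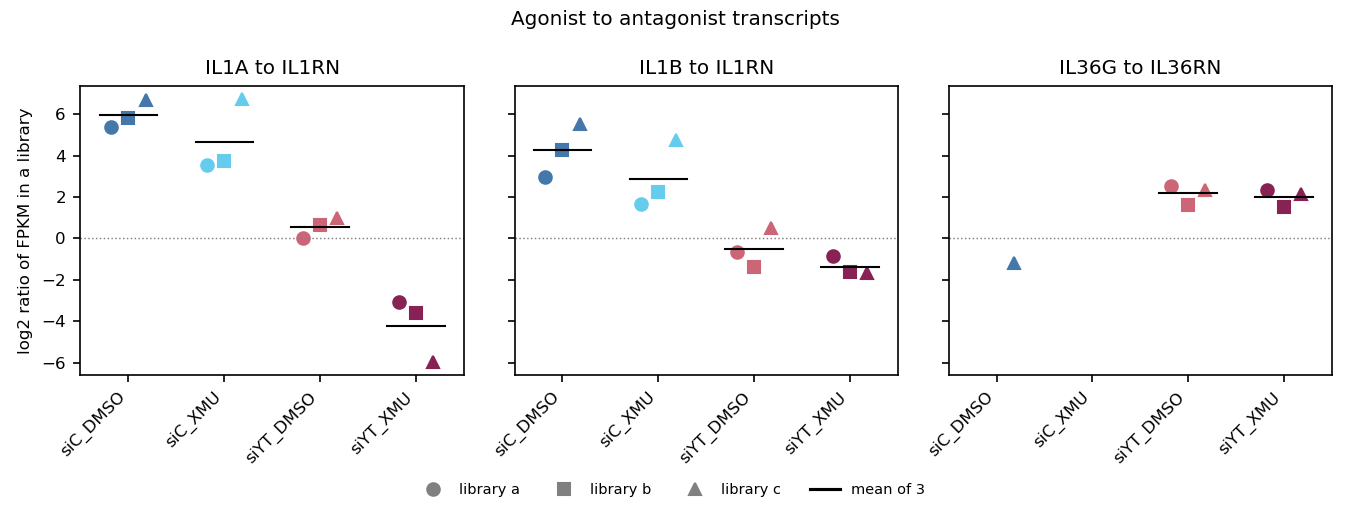
Log2 ratio of FPKM within a library (vertical axis) for IL1A to IL1RN, IL1B to IL1RN and IL36G to IL36RN, by group, with a line at the mean where all 3 libraries gave a ratio. IL1A to IL1RN has a mean of 5.95 in siC_DMSO and -4.21 in siYT_XMU.

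The cluster from IL1A to IL1RN spans 360.1 kb and holds 15 genes of the table, of which 6 passed the filter, the 5 described and IL36B, another IL-36 receptor agonist. IL36B rose at least 57.3-fold with the knockdown in DMSO (adjusted p = 0.00325) and by 5.61 on the log2 scale with it in XMU-MP1 (adjusted p = 0.0141, edgeR). It had 9 counts in all 6 siC libraries together and so passed the filter through the siYT libraries. In the knockdown in DMSO, all tested cluster genes but IL1A passed upward, and along the chromosome the fitted changes were 0.63 for IL1A, 1.56 for IL1B, 8.92 for IL36G, 3.05 for IL36RN and 5.87 for IL1RN. The neighbours IL37, IL36A and IL1F10 had 27, 16 and 8 counts in all and were not tested. With XMU-MP1 under control siRNA, IL1A, IL1B and IL36RN fell, and IL36G, IL36B and IL1RN did not pass.

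**Figure D4:**
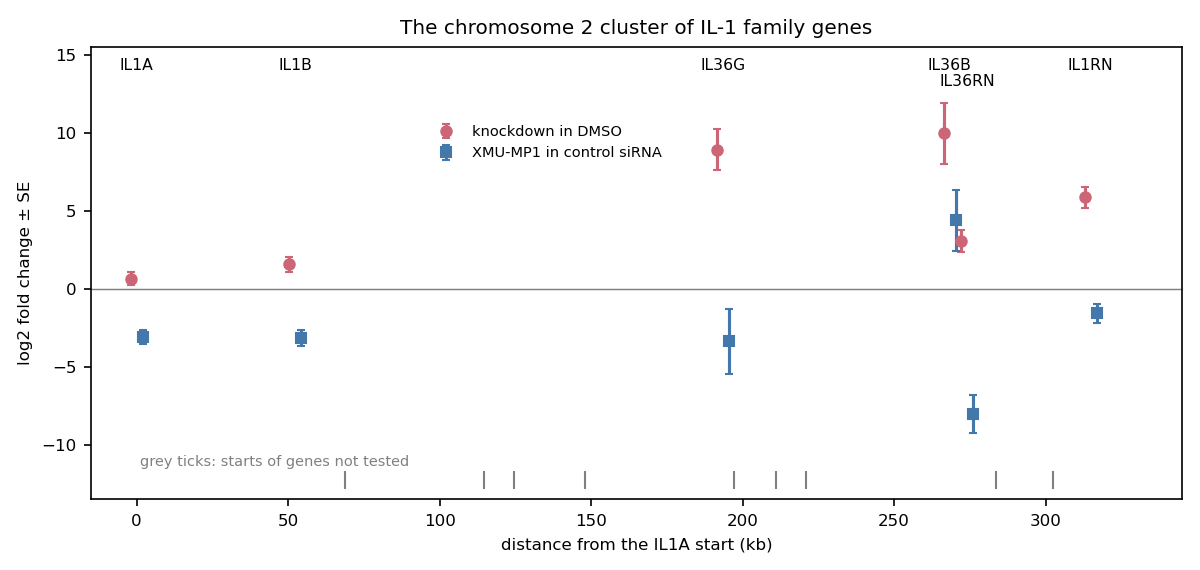
Log2 fold change ± SE (vertical axis) of the 6 tested genes of the chromosome 2 cluster against the distance of their start from that of IL1A in kb, for the knockdown in DMSO and for XMU-MP1 in control siRNA. Both changes for IL36B and the changes for IL36G and IL36RN with XMU-MP1 are fits against a group at 0, and IL1A is the gene with the smallest knockdown change.

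Genes whose log2(CPM + 1) followed each member most closely over the 12 libraries were sought among 11132 tested genes with a mean FPKM of at least 1. The 12 points share their 4 groups and their depths, so these correlations describe the pattern only. IL1RN was followed by MYO5B, ABCA12 and S100A9 (r = 0.99 each). IL1A was followed by CTDSP1 and CDC42EP1 (r = 0.98 each) and FIZ1 (0.97). IL1B was followed by HMGA2 (0.96) and by ANXA8 and ANXA8L1 (0.95 and 0.94), near-identical copies whose reads may be shared. IL36RN was followed by XDH, ATP2B4 and SERPINB1 (each 0.97), and IL1R1 by C6orf141 (0.98), MAP7D1 (0.98) and FAM214B (0.97). The falling IL1RAP was followed by RWDD2A (0.97), TGS1 (0.96) and ABL1 (0.95).

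The remaining ligands and receptors of the family were mostly rare, and 7 of 10 were tested. In the knockdown in DMSO 3 rose and none fell, where 16.1% of all genes tested rose and 16% fell. The 3 were IL1RL1, the IL-33 receptor, with a rise of 5.99 on the log2 scale (edgeR, adjusted p = 0.000506), IL36B, and IL1RL2, the IL-36 receptor. IL1RL2 had no count in any siC library and 8, 12 and 8 counts in siYT_DMSO, at least 5.56-fold higher. IL36B and IL1RL2 passed the filter only through the knockdown libraries, so their calls and the count of 3 follow in part from that filter. The median was 0.53, or 1.5 with genes against a group at 0 set to their bound. With XMU-MP1 present 4 rose and none fell, the same genes and IL18RAP, a chain of the IL-18 receptor, with a median of 5.61 (3.75 with bounds). Of all genes tested 17.7% rose and 18.6% fell there. IL18RAP had 91, 52 and 4 counts in siYT_XMU and 4 counts in the other 9 libraries together, so it passed the filter only through the group where it was high. Its level in siYT_XMU was at least 28.5-fold above the floor in siC_XMU. With XMU-MP1 under control siRNA none of the 7 passed (median 0, and -0.40 with bounds), where 4% of all genes tested rose and 5.26% fell. After the knockdown 4.19% of all genes tested rose with XMU-MP1 and 7.92% fell. Of the 7, 2 rose, IL18BP, the soluble IL-18 antagonist, by 1.97 (edgeR, adjusted p = 0.012) and IL18RAP at least 19.3-fold, with the same limit, and the median was 1.71. That count was 0 without siYT_DMSO b or c and 1 without siYT_DMSO a or siYT_XMU a.

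Along the signalling chain below the receptors 15 of 16 genes were tested. Of these 15, 4 rose and none fell with the knockdown in DMSO (median 0.20, 0.25 with bounds), where 16.1% of all genes rose and 16% fell: IRAK2, a receptor-associated kinase family member, by 2.74 (adjusted p = 0.000105), the inhibitory adaptor TOLLIP by 1.99, the ubiquitin ligase PELI1 by 1.68 and the adaptor MYD88 by 0.95 on the log2 scale. With XMU-MP1 present 3 of 15 rose and 3 fell (median 0.33), shares near the 17.7% and 18.6% of all genes tested, with IRAK2 at 2.15 and TOLLIP at 2.05 above, and the kinase-binding protein TAB1 at -1.67 and the NF-kappaB pathway kinase CHUK at -1.77 below. MYD88 fell with XMU-MP1 in both arms (-1.16 with control siRNA and -1.67 after the knockdown), and so did IRAK2 (-1.40 and -1.98). With control siRNA, where 4% of all genes tested rose and 5.26% fell, 1 rose (PELI1, 1.29) and 2 fell (median -0.04), but only 1 fell without siC_DMSO a, b or c or siC_XMU c. After the knockdown none rose and 3 fell (median -0.25), the third being TAB1 (-1.58), where 4.19% of all genes tested rose and 7.92% fell.

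Of 15 genes for maturation and release 14 were tested. With the knockdown in DMSO 2 rose and 3 fell (median 0.19), where 16.1% of all genes tested rose and 16% fell. CARD18, an inhibitor of caspase-1 with 4 counts in all 6 siC libraries together, rose at least 556-fold, and PYCARD, the inflammasome adaptor, rose by 1.41 (edgeR, adjusted p = 0.0018). CARD18 passed the filter only through the siYT libraries. Its calls and the counts of genes rising in both knockdown comparisons thus follow in part from that filter. NLRP3, an inflammasome sensor, fell at least 11.6-fold, GSDME fell by 1.45, and the pore former GSDMD fell by 2.60 on the log2 scale (adjusted p = 0.0148). NLRP3 had no count in siYT_DMSO and was at 0.0391 CPM in siYT_XMU, so it passed the filter only through the siC libraries. Its call and the count of 3 genes falling thus follow in part from that filter. With XMU-MP1 present 7 rose and 1 fell (median 0.85), where 17.7% of all genes tested rose and 18.6% fell. The rises were led by PYCARD (2.11), CARD18 (10.50, a fit against 4 counts in siC_XMU), CASP1 (1.37) and CAPN1 (0.87), and GSDMD fell (-3.11). With XMU-MP1 under control siRNA, where 4% of all genes tested rose and 5.26% fell, CASP4 (-0.89), CASP1 (-1.06) and CAPN2 (-0.67) fell and none rose (median -0.61, -0.67 with bounds). The count that fell was 0 without siC_DMSO b or siC_XMU b and 1 without siC_DMSO c or siC_XMU c. After the knockdown 1 of the 14 fell with XMU-MP1, CASP8 (-0.99), with a median of 0.01 (-0.01 with bounds, so of the other sign). In that comparison 4.19% of all genes tested rose and 7.92% fell.

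Genes that IL-1 is known to induce in epithelia moved in both directions. In the knockdown in DMSO 6 of 19 tested rose and 6 fell (median -0.34), where 16.1% of all genes tested rose and 16% fell. The antimicrobial proteins S100A7 (8.24, adjusted p = 8.33e-07) and LCN2 (4.94, 6.64e-06) and the NF-kappaB regulator NFKBIZ (1.58) rose, whereas the chemokine CXCL1 (-2.11, adjusted p = 0.000376) fell. With XMU-MP1 present 11 rose and 4 fell (median 1.13, 1.18 with bounds), where 17.7% of all genes tested rose and 18.6% fell. The 11 included S100A7 (8.20), LCN2 (5.04), NFKBIA (1.84) and the chemokine CXCL8 (4.31), and 2 fell without siC_XMU c or siYT_XMU a. IL6, which fell in both knockdown comparisons, was at 0.0258 CPM in siYT_DMSO and in siYT_XMU. It passed the filter only through the siC libraries, so the counts of genes falling in both comparisons follow in part from that filter.

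With XMU-MP1 under control siRNA 1 of these 19 genes rose, NFKBIZ by 0.87, where 4% of all genes tested rose and 5.26% fell. Of the 19, 8 fell (median -0.95), among them CXCL1 (-2.23), BIRC3 (-2.65), TNIP1 (-1.45) and CXCL8 (-2.36). The 8 include 1 gene without counts in siC_XMU, whose call follows in part from the low-count filter. The number that fell was 5 without siC_DMSO a, 4 without siC_DMSO c, and 3 without siC_DMSO b or siC_XMU a, b or c. After the knockdown CXCL8 (3.05) and CCL20 (1.53) rose with XMU-MP1 and BIRC3 (-2.12) fell, with a median of 0.22, and 4 rose without siYT_XMU c. In that comparison 4.19% of all genes tested rose and 7.92% fell. The edgeR interaction passed for CXCL8 (5.40, adjusted p = 0.00795), CXCL1 (2.48, adjusted p = 0.0199) and ICAM1 (2.91, adjusted p = 0.0379), all positive. Of all genes tested 0.86% passed with a positive and 1.73% with a negative interaction. Only CXCL8 of these genes passed upward with XMU-MP1 after the knockdown. CXCL1 (0.25, adjusted p = 0.673, edgeR) and ICAM1 (1.31, adjusted p = 0.0851) did not pass there. The number of the 19 that passed with a positive interaction ran from 1 to 4 with 1 library left out. The libraries hold RNA only, and release or activity of the cytokines was not measured here.

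**Figure D5:**
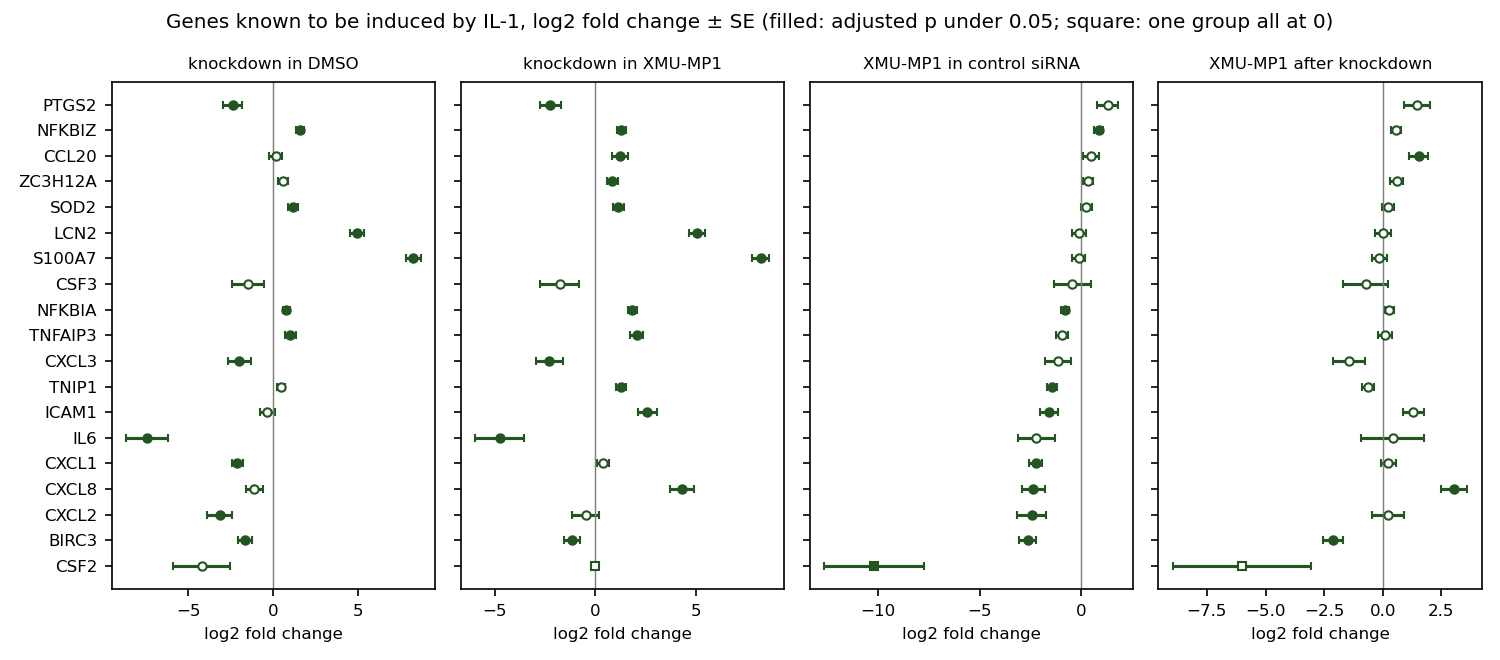
Log2 fold change ± SE of the 19 tested genes known to be induced by IL-1 (rows, ordered by their change with XMU-MP1 in control siRNA) in the 4 comparisons (panels), filled where the edgeR adjusted p is under 0.05 and square where a group had no counts. S100A7 and LCN2 lie to the right in both knockdown panels, and CXCL8 lies to the left with XMU-MP1 in control siRNA and to the right after the knockdown.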

How the data were processed

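RNA sequencing of 12 MCF10A libraries was used as deposited. Per the labels' protocols, the libraries were poly(A)-selected, stranded and read from both ends. The submitters' processing notes name cutadapt, FastQC, HISAT2, StringTie, edgeR and GRCh38.p13, and how reads were counted is not given in the sources used here. Per the file headers, the authors deposited counts and FPKM, which is scaled to transcript length and depth, for each gene. Genes with a count of 0 carry an FPKM of 1e-04 there, treated as 0 for levels.

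Counts were tested with edgeR 4.0.16 in R 4.3.3: filterByExpr (18143 genes kept), TMM, a quasi-likelihood fit of 4 group means to all 12 libraries (8 residual degrees of freedom, prior count 0.125), and Benjamini-Hochberg adjustment over all tested genes, called under 0.05. SE is the log2 fold change over the square root of F. Levels are CPM with TMM scaling, mean ± SD. The 5 contrasts were also fitted under 21 other settings, among them DESeq2 1.42.0 and limma 3.58.1. The members and gene lists were chosen with earlier results of these data known. All 10 members are named in each contrast. From each list at most 4 called genes per direction are named in a contrast, those with the smallest adjusted p of that direction. A leukocyte marker is not reported here.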

Additional observations from a re-analysis of the deposited data

Results flagged for a closer look

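The XMU-MP1 effect on IL36RN differed between the siRNA arms by 7.34 on the log2 scale (edgeR interaction, adjusted p = 0.0299). The antagonist had 75, 40 and 20 counts in siC_DMSO and none in siC_XMU, and it stood at 7.13, 1.82 and 7.09 CPM in siYT_DMSO and at 2.84, 2.36 and 4.76 CPM in siYT_XMU. Over the other settings that keep all libraries the adjusted p ran from 0.000326 to 0.772.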

How the results depend on the processing

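Each member effect was refitted under 21 other settings, of which 12 leave out 1 library. Of 17 called effects 12 kept direction and call in every setting, and of 28 others 21 were called in none. The 5 called effects that changed were IL1B with the knockdown in DMSO (lost in 9 settings), IL1RAP in the same comparison (5) and with the knockdown under XMU-MP1 (2), IL36RN with XMU-MP1 in control siRNA (lost on both FPKM scales, adjusted p = 0.514 and 0.0641) and the IL36RN interaction (lost in 10 and turned in 1). The 7 gained were IL18 with the knockdown in DMSO (2 settings), IL1A (3) and IL1R1 (1) with it in XMU-MP1, IL1RN with XMU-MP1 in control siRNA (1), IL1B with XMU-MP1 after the knockdown (3), and the interactions of IL1A (1) and IL1R1 (2). The cause was not tested.

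Members falling with the knockdown in DMSO numbered 2 with voom quality weights or the replicate block (1 as reported, 0 to 1 with a library left out). With XMU-MP1 present the number was 2 with DESeq2 and on both FPKM scales and 0 with only the compared groups (0 to 1). Members that passed with a negative interaction numbered 2 with DESeq2 and 1 on log2(FPKM + 1). Those with a positive interaction numbered 0 with voom and on both FPKM scales (0 to 1).

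Genes called for XMU-MP1 in control siRNA numbered 1680, against 3052 with DESeq2, 5052 with voom, 4044 with only the compared groups and 1086 on log2(FPKM + 0.1) (629 to 2661 with a library left out). After the knockdown they numbered 2198, against 3670, 866 with only the compared groups, and 3414 and 3302 on log2(FPKM + 1) and log2(FPKM + 0.1) (1159 to 2885). The interaction gave 470, against 1803 with DESeq2, 1220 with voom and 715 on log2(FPKM + 1) (86 to 1006).

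Signs that turned belonged to uncalled effects, apart from IL36RN in the interaction (-0.23 on log2(FPKM + 1)). They were IL1R2 with the knockdown in XMU-MP1 (2.13 with voom, 0.65 without siC_XMU c, 0.29 without siYT_XMU c, range -1.08 to 0.65 over left-out libraries) and with XMU-MP1 in control siRNA (0.20 without siC_DMSO c, 0.30 without siC_XMU b, range -1.10 to 0.30). IL18 after the knockdown turned to 0.0111 with the stricter filter, 0.0092 with RLE, 0.0037 with DESeq2, 0.37 with voom, 0.33 without siYT_DMSO a and 0.32 without siYT_XMU c (range -0.28 to 0.33). IL1RAP there turned to -0.13 and -0.23 on the FPKM scales and -0.0023 without siYT_XMU a (range to 0.42). In the interaction IL1RAP turned to 0.0093 with the stricter filter, 0.0345 with RLE, 0.0288 with DESeq2, and 0.05, 0.11 and 0.18 without siC_XMU c, siYT_DMSO c and siYT_XMU b (range from -0.24). IL1RN turned to -0.14 on log2(FPKM + 1), IL18 to -0.11 and -0.12 and IL36G to -0.94 and -0.90 on the FPKM scales, and IL36G to -1.01 without siC_DMSO c (range to 2.89).

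The labels do not say that a letter marks a shared culture or day. Same-letter deviations correlated at 0.0177 to 0.276, over 0.1 in 9 of 18 pairs, and each of the 12 libraries was closest to its own letter, a hint of pairing from the data. Every pair was over 0.1 between siC_DMSO and siC_XMU (0.276, 0.149 and 0.177), where the block changed no member call and gave 1718 called genes against 1680. With the replicate block IL18 fell by 0.76 with the knockdown in DMSO (adjusted p = 0.0308) and IL1R1 rose by 0.86 with it in XMU-MP1 (adjusted p = 0.0361), and no other member call changed. At the depth of siYT_XMU c a member under 0.621 CPM could go uncounted, and every count of members called was the same without that library.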
